A study of Mus musculus with 6 samples.

Results

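The muscle ankyrin repeat genes Ankrd1, Ankrd2 and Ankrd23 were followed across the 3 samples of a promoter-array study of TEAD4 in C2C12, mouse myoblasts in culture that stop dividing and form myotubes once serum is lowered. Their members are the non-control probes whose array annotation names one of the 3 genes with a distance to its start, which gave 40 probes for Ankrd1 and 42 for Ankrd2, both on array design 2, and 19 for Ankrd23 on design 1. These 101 probes stood among 471870 used on both designs, and the 3 genes among 16509 that had at least 1 measured window. The genes were chosen from measured enrichment of these same samples, so their values are given as a description, with no test.

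TEAD4 chromatin came from C2C12 populations infected with a retrovirus for TEAD4 carrying a Flag-HA tag, in 2 samples called duplicates in the labels, and control chromatin from cells infected with the empty vector, in 1 sample. All cells were kept under puromycin, were differentiated for 5 days in 2% horse serum after growth in 10% serum, and were fixed in 0.4% formaldehyde for 10 min. Chromatin was precipitated with an antibody to Flag. Precipitated DNA (IP, 4 µg, Cy5) was hybridised together with input DNA (4 µg, Cy3) on 2 Agilent promoter designs per sample, 6 arrays in all. The TEAD4 measured is therefore the tagged, virally expressed protein in a mixed infected population, not the endogenous one. Nothing in the labels says that the duplicates came from separate cultures, so their spread may be technical. The assay reads DNA, so the labelled myotubes could not be checked by expressed markers.

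Muscle ankyrin repeat proteins are small adaptor proteins that bind the elastic N2A part of titin in the sarcomere and also enter the nucleus, where they act as co-regulators of transcription. Their genes are switched on by stretch, injury or metabolic stress of striated muscle. TEAD factors bind the MCAT element, whose core reads GGAATG or CATTCC depending on the strand, and activate genes together with YAP and TAZ. Ankrd1 is one of the genes most used as a readout of YAP activity.

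The promoter sequences of the 3 genes are shown because the core of the TEAD motif can be read in them and set beside the measured profiles. They are RefSeq promoters of GRCm38.p6, 250 bases before to 50 after each start, written 5′ to 3′ on the strand of the gene with the core GGAATG or CATTCC in capitals. They lie at chr19:36119795-36120094 on the minus strand for Ankrd1, at chr19:42035777-42036076 on the plus strand for Ankrd2, and at chr1:36536507-36536806 and chr1:36535690-36535989 on the minus strand for the 2 starts of Ankrd23.
Ankrd1: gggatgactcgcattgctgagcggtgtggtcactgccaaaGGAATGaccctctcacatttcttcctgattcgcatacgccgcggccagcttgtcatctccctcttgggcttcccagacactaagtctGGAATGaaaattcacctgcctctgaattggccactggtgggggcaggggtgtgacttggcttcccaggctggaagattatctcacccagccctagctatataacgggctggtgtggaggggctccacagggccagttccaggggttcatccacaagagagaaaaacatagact
Ankrd2: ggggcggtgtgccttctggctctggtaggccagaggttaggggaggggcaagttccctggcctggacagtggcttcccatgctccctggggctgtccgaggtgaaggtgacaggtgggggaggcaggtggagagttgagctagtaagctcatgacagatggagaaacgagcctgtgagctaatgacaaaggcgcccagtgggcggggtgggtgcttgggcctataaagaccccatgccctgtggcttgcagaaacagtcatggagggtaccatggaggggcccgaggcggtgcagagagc
Ankrd23 first start: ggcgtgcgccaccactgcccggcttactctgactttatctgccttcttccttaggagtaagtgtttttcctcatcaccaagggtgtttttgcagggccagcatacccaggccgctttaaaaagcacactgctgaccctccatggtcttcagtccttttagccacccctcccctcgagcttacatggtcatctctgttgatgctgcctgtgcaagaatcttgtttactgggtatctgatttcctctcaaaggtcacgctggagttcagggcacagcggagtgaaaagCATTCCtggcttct
Ankrd23 second start: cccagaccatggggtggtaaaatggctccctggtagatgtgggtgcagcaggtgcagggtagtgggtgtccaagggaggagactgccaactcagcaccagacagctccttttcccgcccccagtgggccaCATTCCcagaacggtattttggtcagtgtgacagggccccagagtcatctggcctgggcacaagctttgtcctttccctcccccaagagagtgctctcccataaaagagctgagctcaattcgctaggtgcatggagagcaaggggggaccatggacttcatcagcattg
The Ankrd1 promoter held the core at 2 places, from -210 to -205 and from -123 to -118, counted from the start at +1 with no position 0. The first of them continued as the longer MCAT letters AGGAATG, the reverse of CATTCCT. Of the 2 Ankrd23 entries, the first held CATTCC from 37 to 42 bases after its start, continued as CATTCCT, and the second held it from -120 to -115. No core letters were found in the Ankrd2 window, which says nothing of the sequence outside it. Searched on both strands, the core was present in 14.7% of all 32851 promoters of this length, at least 2 times in 1.36%, and CATTCCT was present in 5.36%. The core is part of CATTCCT, so these matches overlap. The array places the start of Ankrd23 at 11472 bp from that of the neighbouring gene Ankrd39, against 11513 bp for the second RefSeq start and 10696 bp for the first, so the array start lay nearer the second.

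DNA precipitated with tagged TEAD4 was enriched over input at or close to the start of Ankrd1 and Ankrd23, and inside the gene at Ankrd2. Enrichment was expressed as log2 of IP over input, centred on the median of each array, and averaged in windows made of a probe and its neighbours within 500 bp on each side, with at least 3 probes. The top window of a gene is the one with the largest mean of both TEAD4 samples. Averaged over the TEAD4 samples, the top window was 6.86-fold over input at Ankrd2, 4.32-fold at Ankrd1 and 2.92-fold at Ankrd23, and the control sample stood at 0.691, 0.918 and 1.30 in those windows. In both TEAD4 samples all 3 genes reached 2-fold over input in some window, where 858 of 16509 genes (5.20%) did, and the rule that chose the genes used these same samples. All 3 also had a window that in both TEAD4 samples was 2-fold over input and 2-fold over the control, where 422 genes (2.56%) did.

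**Figure D1:**
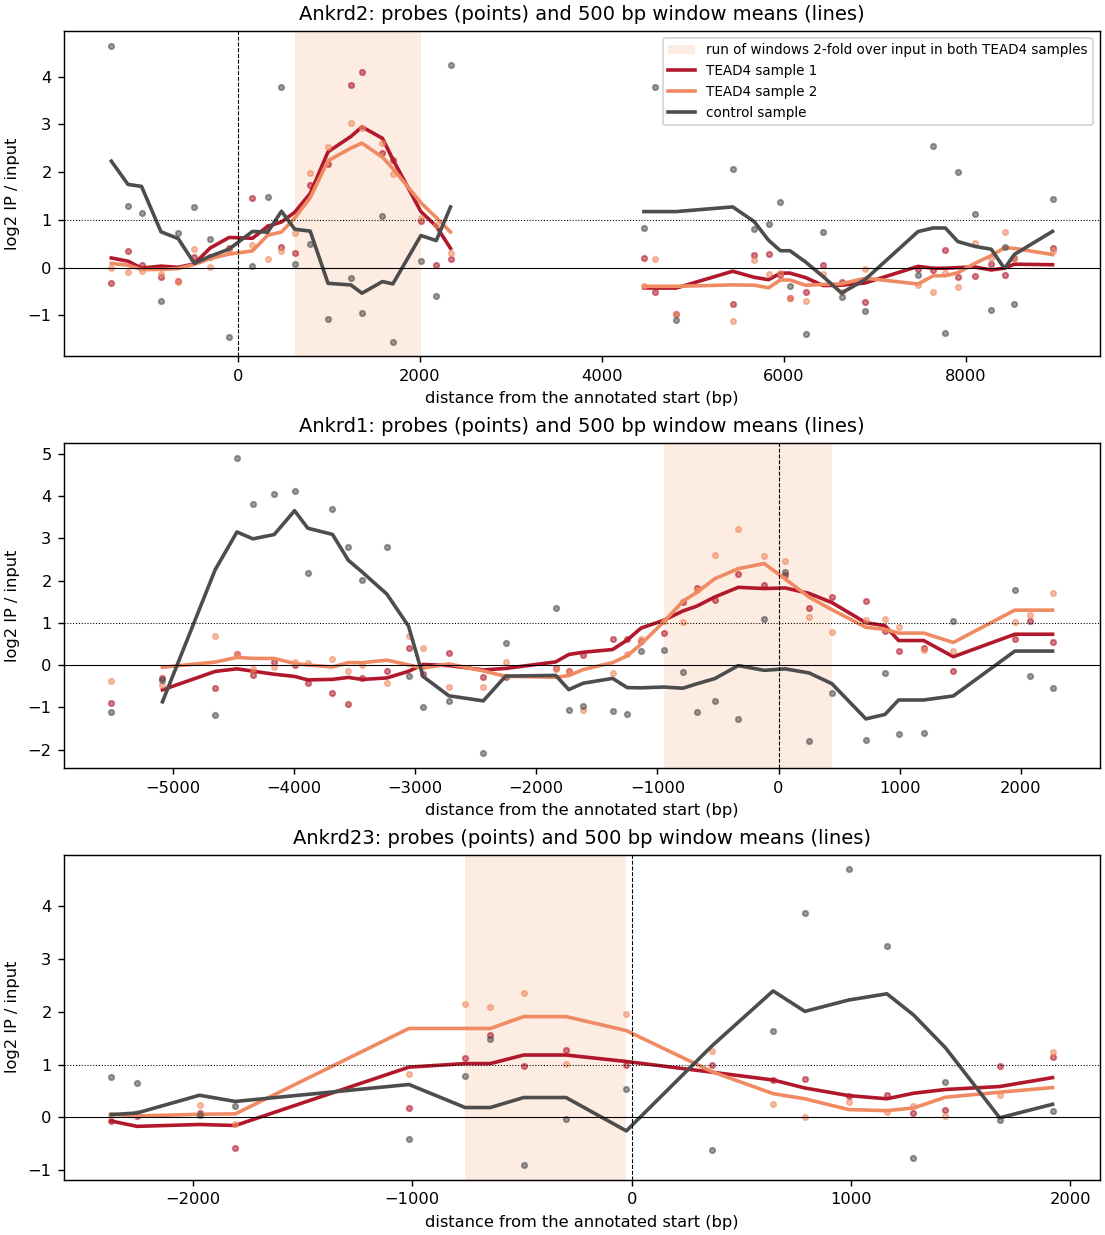
Log2 of IP over input against distance from the annotated start (bp) for Ankrd2, Ankrd1 and Ankrd23. Points are probes, lines are means of windows reaching 500 bp to each side, shading marks the run of windows at least 2-fold over input in both TEAD4 samples, dashed lines mark the start and dotted lines a log2 of 1. The window mean of both TEAD4 samples peaks 1362 bp inside Ankrd2, at -119 bp from the start of Ankrd1 and at -299 bp from that of Ankrd23. The Ankrd23 window at -492 bp holds the same probes, and at Ankrd1 TEAD4 sample 1 alone peaks at -333 bp. The control sample peaks elsewhere in each gene.

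Ankrd2 encodes the stretch-responsive member found mainly in slow skeletal muscle fibres. Its top window covered chromosome 19 from 42090308 to 42091079 in the coordinates of the array files (build not given in the sources used here) and was centred 1362 bp downstream of the start. It read 2.95 and 2.61 in TEAD4 samples 1 and 2 (2.78 ± 0.24, SD, n = 2), against -0.53 in the control sample. Both TEAD4 samples were far above the control there, by 3.48 and 3.14 on the log2 scale, and all 5 probes of the window were higher in each TEAD4 sample than in the control. The array annotation marks these probes only as inside the gene, without saying whether they are exonic or intronic.

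The probe with the largest mean TEAD4 ratio, 1362 bp from the start, read 4.10 and 2.93 in the TEAD4 samples and -0.95 in the control. Its processed intensities were 34432 and 17495 for TEAD4 IP, against 1999 and 2302 for the matching input. In the control sample the same probe gave 577.8 for IP and 1641 for input. The input was thus close to even across the samples, and the difference lay in the IP channel. The probe at 1240 bp read 3.82 and 3.03 in the TEAD4 samples and -0.21 in the control, and had the higher TEAD4 IP intensities of the pair, 43245 and 18490. Its ratio was above that of the probe at 1362 bp in sample 2 and below it in sample 1. TEAD4 sample 1 was the higher of the duplicates at both probes, while at 989 bp sample 2 was higher, with 2.17 and 2.52 against -1.08 in the control.

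The enrichment over Ankrd2 formed one run of 8 windows, centred from 623 to 2010 bp, of which 5 were also 2-fold over the control. Upstream of the start there was little. The 8 probes from -1394 to -98 bp had medians of 0.14 and -0.04 in the TEAD4 samples, against 0.93 in the control, and none of them reached 2-fold over input in a TEAD4 sample. Just downstream, the 4 probes from 158 to 623 bp had medians of 0.64 and 0.41 in the TEAD4 samples, against 0.78 in the control, and the one at 158 bp read 1.45 in TEAD4 sample 1 and 0.48 in sample 2, against 0.04 in the control. Their TEAD4 medians lay between those of the upstream probes and those of the probes farther inside. The 7 probes between 793 and 2010 bp had medians of 2.26 and 2.52 in the TEAD4 samples, against -0.21 in the control. Downstream of an unprobed gap of 2127 bp, the 21 probes from 4463 to 8956 bp were back at medians of -0.15 and -0.12 in the TEAD4 samples, with 0.76 in the control. Of genes with a called window, 24.7% had their top window 500 to 2000 bp downstream of the start, as Ankrd2 did, and 23.3% of all genes had it there. Within 500 bp of the start, where Ankrd1 and Ankrd23 had theirs, it lay in 28.2% of called genes and 34.4% of all genes.

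Ankrd1, the cardiac ankyrin repeat protein, was enriched across its start. Its top window on chromosome 19 from 36184707 to 36185539, on a gene that runs on the minus strand, was centred at -119 bp. It read 1.81 and 2.41 in the TEAD4 samples (2.11 ± 0.42, SD, n = 2), against -0.12 in the control. The TEAD4 samples were 1.94 and 2.53 above the control on the log2 scale, and the control had no replicate. In this window 4 of the 5 probes were higher in both TEAD4 samples than in the control. The exception was the probe at 55 bp, inside the gene, which read 2.12 and 2.46 in the TEAD4 samples and 2.21 in the control.

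The largest TEAD4 ratio of a single Ankrd1 probe, by the mean of both samples, was at -333 bp, with 2.16 and 3.23 in the TEAD4 samples and -1.28 in the control. The intensities there were 1681 and 4232 for TEAD4 IP and 375.1 and 452.3 for TEAD4 input. The control IP gave 54.8, which was not well above background, against 195.5 for its input. Raising that signal to the lowest among probes of its array that were well above background left the control at -1.28. The TEAD4 mean was 15.7-fold over the control so set. That fold is uncertain and not a firm lower bound. The error given for the control spot was 0.77 on the log2 scale, and the SD of the duplicates was 0.76. Further out the TEAD4 ratios declined on both sides: at -949 bp the probe read 0.76 and 1.05 in the TEAD4 samples and 0.36 in the control, and at 991 bp it read 0.34 and 0.91 in the TEAD4 samples and -1.64 in the control.

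The run at Ankrd1 held 9 windows, centred from -949 to 440 bp, and all 9 were also 2-fold over the control. Among genes with a called window the median was 3 windows 2-fold over input in both TEAD4 samples, and 3.73% had at least as many as Ankrd1. That count does not use the control. It is also bounded by the windows a gene has, 39 at Ankrd1 and 19 at Ankrd23. A lesser rise stood inside the gene, where the windows centred from 1951 to 2262 bp held the same 3 probes and read 0.73 and 1.30 in the TEAD4 samples and 0.33 in the control, so that only sample 2 passed 2-fold. If the array and RefSeq use the same start base, both core motifs printed for Ankrd1 lie inside the top window. That identity could not be checked, because no genome of the array's build was used here.

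Ankrd23, also called diabetes-related ankyrin repeat protein, had the lowest values of the 3. Its top window on chromosome 1 from 36480276 to 36481064 was centred at -299 bp and held the same 5 probes as the window at -492 bp. It read 1.18 and 1.91 in the TEAD4 samples (1.55 ± 0.51, SD, n = 2), against 0.38 in the control. The TEAD4 samples were 0.81 and 1.53 above the control on the log2 scale, so this window passed 2-fold over the control in sample 2 only. The window that passed in both was centred at -24 bp and held 4 probes. It read 1.06 and 1.64 in the TEAD4 samples and -0.26 in the control.

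Single probes of Ankrd23 differed between the duplicates and in how far they stood above the control. The probe at -492 bp read 0.97 and 2.37 in the TEAD4 samples and -0.90 in the control. Its intensities were 1458 and 2862 for TEAD4 IP, 743.0 and 562.5 for TEAD4 input, 171.4 for control IP and 497.4 for control input. The lowest input signal of the window was 141.3. At -644 bp the 3 samples were nearer each other, with 1.55 and 2.09 in the TEAD4 samples and 1.49 in the control. Of the 5 windows in the run, centred from -759 to -24 bp, only the last was 2-fold over the control in both TEAD4 samples.

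These top-window probes are shared with other transcripts in the annotation. At Ankrd23 they also list Ankrd39, another ankyrin repeat gene, at 10713 to 11448 bp, and Cnnm3, a membrane protein of magnesium transport, at 23878 to 24613 bp from their starts. An Ensembl transcript whose start lies 2870 to 3605 bp upstream of the probes is listed as well. Another listed transcript has distances from -749 to -14 bp, close to those of Ankrd23 itself. At Ankrd1 and Ankrd2 the only other entries in the top window were transcripts whose distances matched those of the gene to within 12 bp. The arrays alone do not assign the enrichment at Ankrd23 to one of these transcripts.

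**Figure D2:**
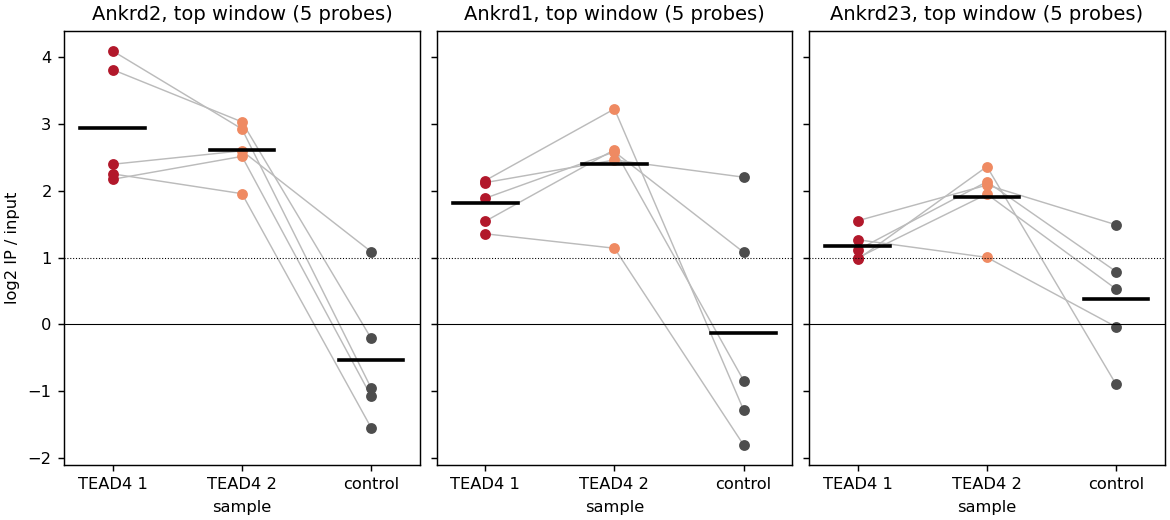
Log2 of IP over input of the 5 probes in the top window of each gene, by sample. Points are probes, grey lines join the same probe across samples, and black bars are the window means of 2.95, 2.61 and -0.53 for Ankrd2, 1.81, 2.41 and -0.12 for Ankrd1, and 1.18, 1.91 and 0.38 for Ankrd23 in TEAD4 sample 1, TEAD4 sample 2 and the control.

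The order from high to low was Ankrd2, Ankrd1, Ankrd23 in both TEAD4 samples. It depended on the window: with 1000 bp on each side, Ankrd1 was above Ankrd2 in sample 2, at 1.71 against 1.67, and above it over the control, at 2.01 against 1.17. The duplicates of Ankrd2 did not overlap those of Ankrd1, with a difference of 1.13 in sample 1 but only 0.20 in sample 2. The values of Ankrd1 and Ankrd23 overlapped across the duplicates, though Ankrd1 was higher by 0.63 in sample 1 and by 0.50 in sample 2. Sample 2 gave the higher window at Ankrd1 and Ankrd23, at 4 of 5 probes each, and sample 1 at Ankrd2, where sample 2 was higher at 2 of 5 probes. Ratios of different probes also carry differences between probes, and Ankrd23 was read on another design, so the order describes these arrays.

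By the mean of both TEAD4 samples Ankrd2 ranked 4 among the 16509 genes, Ankrd1 ranked 62 and Ankrd23 ranked 365, where the median gene's top window stood at 0.40 and the highest 1% began at 1.79. By each gene's own best window in one sample, Ankrd2 ranked 3 in TEAD4 sample 1, 83 in sample 2 and 7371 in the control. Ankrd1 ranked 103, 146 and 679, and Ankrd23 ranked 752, 461 and 6264, in the same order of samples. The rank of 679 for Ankrd1 in the control comes from windows upstream of its TEAD4 run, described next.

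**Figure D3:**
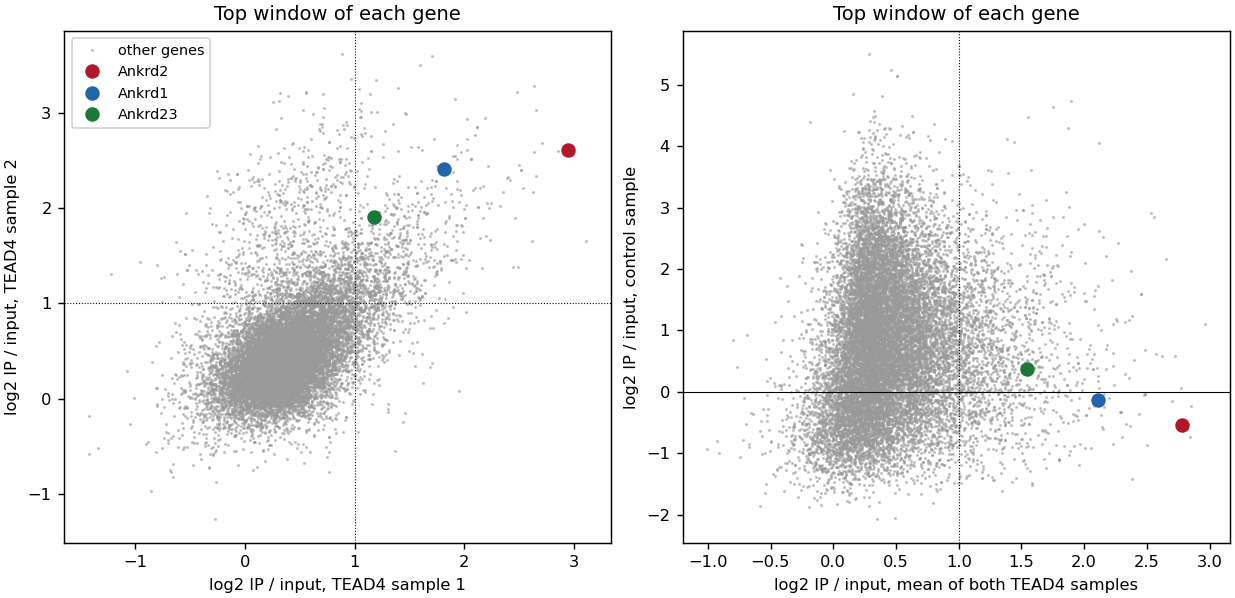
Top window of every gene with a window (16509 genes), as log2 of IP over input. The left panel plots TEAD4 sample 1 against sample 2 and the right panel the TEAD4 mean against the control in the same window; dotted lines mark a log2 of 1. Ankrd2 lies at 2.95 and 2.61, Ankrd1 at 1.81 and 2.41 and Ankrd23 at 1.18 and 1.91, with control values from -0.53 to 0.38.

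The control sample had peaks of its own in all 3 genes, at other places than TEAD4. At Ankrd1 the window centred at -3996 bp, on chromosome 19 from 36188511 to 36189490, read -0.27 and 0.04 in the TEAD4 samples and 3.66 in the control. The probe there had IP intensities of 677.1 and 736.7 in the TEAD4 samples and 8579 in the control, with inputs of 671.9 and 700.0 in the TEAD4 samples and 718.9 in the control. At Ankrd23 the window centred at 645 bp, inside the gene, read 0.71 and 0.45 in the TEAD4 samples and 2.40 in the control, and its probe at 990 bp gave 0.41 and 0.28 in the TEAD4 samples and 4.70 in the control. At Ankrd2 the window centred at -1394 bp read 0.20 and 0.09 in the TEAD4 samples and 2.23 in the control.

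Counted over windows, the control passed 2-fold over input in 9 of 42 at Ankrd2, 10 of 39 at Ankrd1 and 7 of 19 at Ankrd23. No window of the 3 genes passed in both TEAD4 samples and in the control at once, but the share of all windows that did was not computed. Single probes did pass in all 3 samples, 2 at Ankrd1, 1 at Ankrd2 and 1 at Ankrd23. Over the whole array the control passed in 26.4% of windows and in at least 1 window of 85.6% of genes. The SD of its window ratios was 1.04, against 0.38 and 0.40 in the TEAD4 samples. Its IP signal was 1.84 to 2.04 times the local background, against 3.62 to 5.41 times in the TEAD4 samples. Extended dynamic range was used to extract the control arrays but not the TEAD4 arrays, and the 3 samples were scanned on different days, so scan day, extraction setting and sample cannot be told apart. With 1 control sample, its peaks have no replicate.

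**Figure D4:**
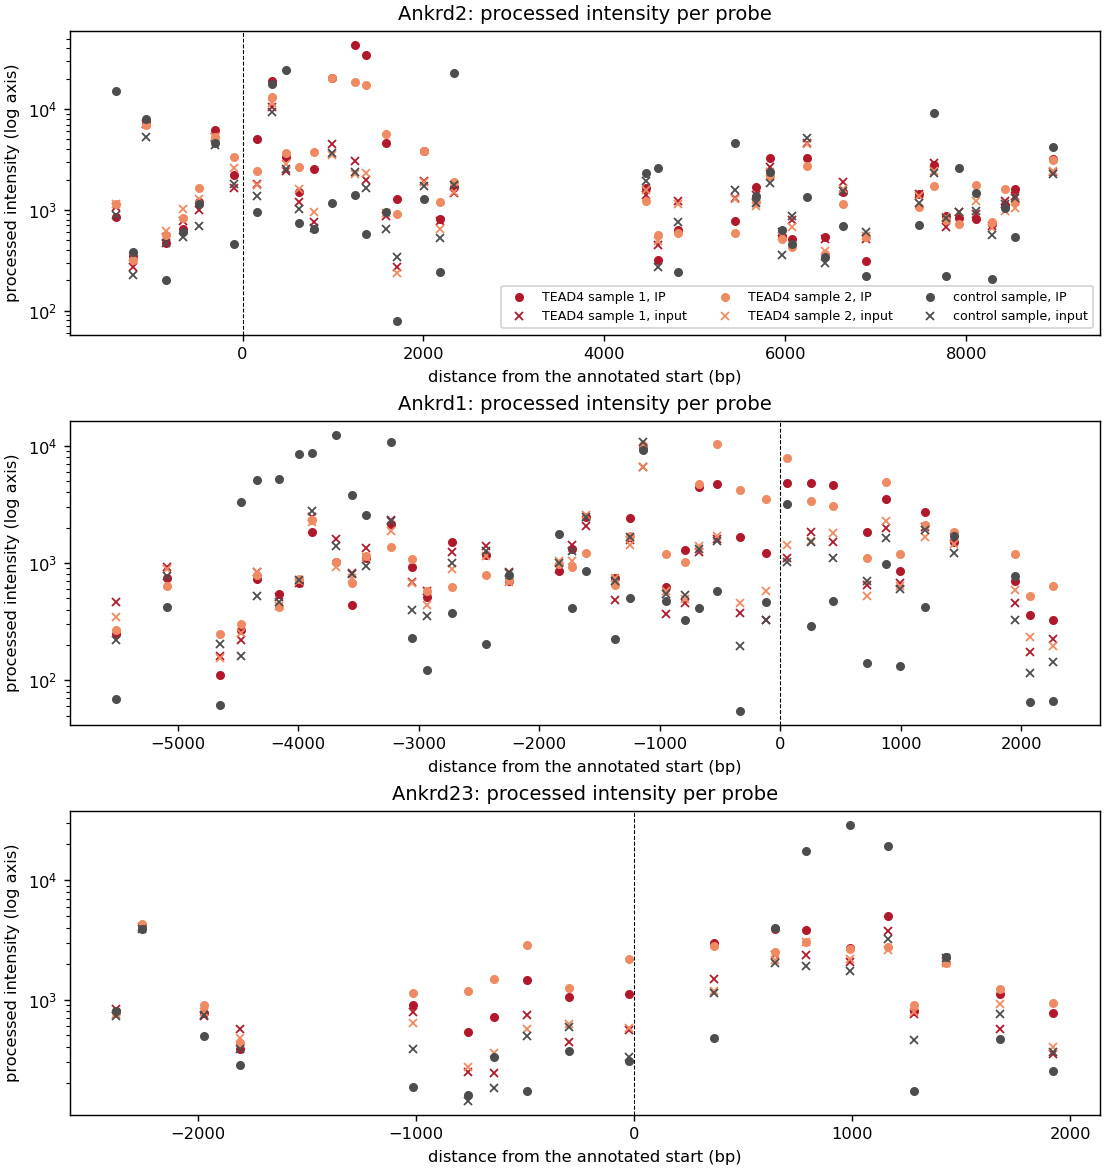
Processed intensity per probe (log axis) against distance from the annotated start (bp) for Ankrd2, Ankrd1 and Ankrd23; circles are IP and crosses input, coloured by sample. Input signals of the 3 samples lie close together at most probes, while TEAD4 IP reaches 34432 and 17495 at the Ankrd2 probe with the largest mean ratio (1362 bp), where the control IP is 577.8, and 43245 and 18490 at the probe at 1240 bp, where it is 1390.

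Across the probes of one gene the TEAD4 samples ran together and the control did not follow them. Pearson's r between TEAD4 samples 1 and 2 was 0.91 over 42 probes of Ankrd2, 0.81 over 40 of Ankrd1 and 0.75 over 19 of Ankrd23. Between TEAD4 sample 1 and the control it was -0.23 at Ankrd2, -0.30 at Ankrd1 and -0.0026 at Ankrd23, and between sample 2 and the control -0.20, -0.18 and -0.31 for the same genes. These describe neighbouring probes that share fragments and hybridisations, and are not independent points. The genes were chosen from measured enrichment of these same samples, so a peak shared by the TEAD4 samples was partly built into the choice. No r was computed over other genes, so the values describe these genes only and do not set them apart.

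The direction of each top window, TEAD4 over input and over the control, was the same under all 11 other settings. Some of these could hardly change it: each top window held 5 probes, and no probe of the 3 genes was flagged as non-uniform. Leaving out 1 duplicate could not change it either, since each duplicate was above input and control in every top window. Ankrd2 and Ankrd1 kept a window past both thresholds under every setting of processing tried. Ankrd23 had none 2-fold over input in both TEAD4 samples after normexp background correction, where its top window read 0.89, and none past both input and control after loess, with windows of 1000 bp on each side or with at least 5 probes. Scaling the arrays to a common spread put the top windows at 4.19 for Ankrd2, 3.17 for Ankrd1 and 2.25 for Ankrd23. Averaging over 1000 bp on each side lowered Ankrd2 to 1.67 over input and 1.17 over the control.

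Some genes had top windows much like those of the members, by Euclidean distance over the 3 values (TEAD4 sample 1, TEAD4 sample 2, control). Nearest to Ankrd1 were Creb3l2, a transcription factor anchored in the endoplasmic reticulum, at a distance of 0.12, Mustn1, a small nuclear protein of the musculoskeletal system, at 0.25, and Cep44 [BC088983 on the array], a centrosomal protein, at 0.29. Mustn1 read 1.73 and 2.23 in the TEAD4 samples and 0.03 in the control, in a window centred at -242 bp. Nearest to Ankrd2 were Map4k4, a kinase, at 0.46, Fam71f1 [BC048651 on the array] at 0.52 and Capn2, a calpain protease subunit, at 0.55. Nearest to Ankrd23 were Klhl30 at 0.11, Ucp3, a mitochondrial uncoupling protein of muscle, at 0.15 and Cd163l1 [E430002D04Rik on the array] at 0.17. Ucp3 read 1.30 and 2.00 in the TEAD4 samples and 0.33 in the control, in a window centred 1912 bp inside the gene. The members lay 0.95 apart for Ankrd1 and Ankrd23, 1.22 for Ankrd2 and Ankrd1 and 2.11 for Ankrd2 and Ankrd23. The genes named here are the 3 nearest to each member, so all others are farther by construction. Counted from the nearest, Ankrd23 was number 129 and Ankrd2 number 296 from Ankrd1. From Ankrd2, Ankrd1 was number 32 and Ankrd23 number 276. From Ankrd23, Ankrd1 was number 664 and Ankrd2 number 9933.

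Titin was among the enriched genes of proteins that the members bind. Of 12 listed partners at titin, the Z-disc and in the nucleus, 10 had a window, 2 of them passed 2-fold over input in both TEAD4 samples and 1 also over the control, where 5.20% and 2.56% of all genes passed. Their median top window was 0.88, against 0.40 over all genes. Ttn, the titin gene itself, read 1.07 and 1.34 in the TEAD4 samples and -0.70 in the control, in a window 795 bp inside the gene. Trp53, which encodes the p53 protein, read 1.25 and 1.59 in the TEAD4 samples but 2.25 in the control. Casq2, cardiac calsequestrin, had the highest mean of the list, 1.61 ± 1.16 (SD, n = 2), with 0.79 and 2.43 in the TEAD4 samples and 0.12 in the control, and sample 1 kept it below 2-fold.

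Genes that respond to YAP, listed without Ankrd1, numbered 21, of which 17 had a window. Passing over input were 4, and 2 of these also over the control, beside 5.20% and 2.56% of all genes, with a list median of 0.63. Ccn1 [Cyr61 on the array], a secreted matricellular protein, read 1.93 and 2.29 in the TEAD4 samples and 1.10 in the control. That window of Ccn1 was less than 2-fold over the control in TEAD4 sample 1, and it was another window of the gene that passed. Gadd45a, a stress-response gene, read 1.70 and 2.07 in the TEAD4 samples and -0.97 in the control, 1587 bp inside the gene. Ccn2 [Ctgf on the array], a matricellular protein, read 1.06 and 1.48 in the TEAD4 samples and 0.56 in the control. Amotl2, an angiomotin that binds YAP, read 1.21 and 1.18 in the TEAD4 samples and 0.92 in the control. By mean, Ankrd1 (2.11) and Ccn1 (2.11) stood level, and Ankrd2 was above every gene of the list.

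Of 11 muscle genes that respond to stretch or load, 9 had a window, 2 passed over input and 1 also over the control, beside 5.20% and 2.56% of all genes, with a median of 0.62. Cryab, the chaperone alpha-B crystallin, read 2.21 and 2.44 in the TEAD4 samples and 1.13 in the control. Acta1, skeletal muscle actin, read 1.15 and 1.65 in the TEAD4 samples and 0.27 in the control. Among the 31 other genes named Ankrd with a number, which share the repeat but not the role in the sarcomere, 1 passed over input and the same gene also over the control, beside 5.20% and 2.56% of all genes, and the median was 0.42. That gene, Ankrd10, read 1.58 and 2.64 in the TEAD4 samples and 0.26 in the control, from 3 probes. The lists were chosen with earlier results of these data known, and nothing particular to a list is drawn from its count.

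**Figure D5:**
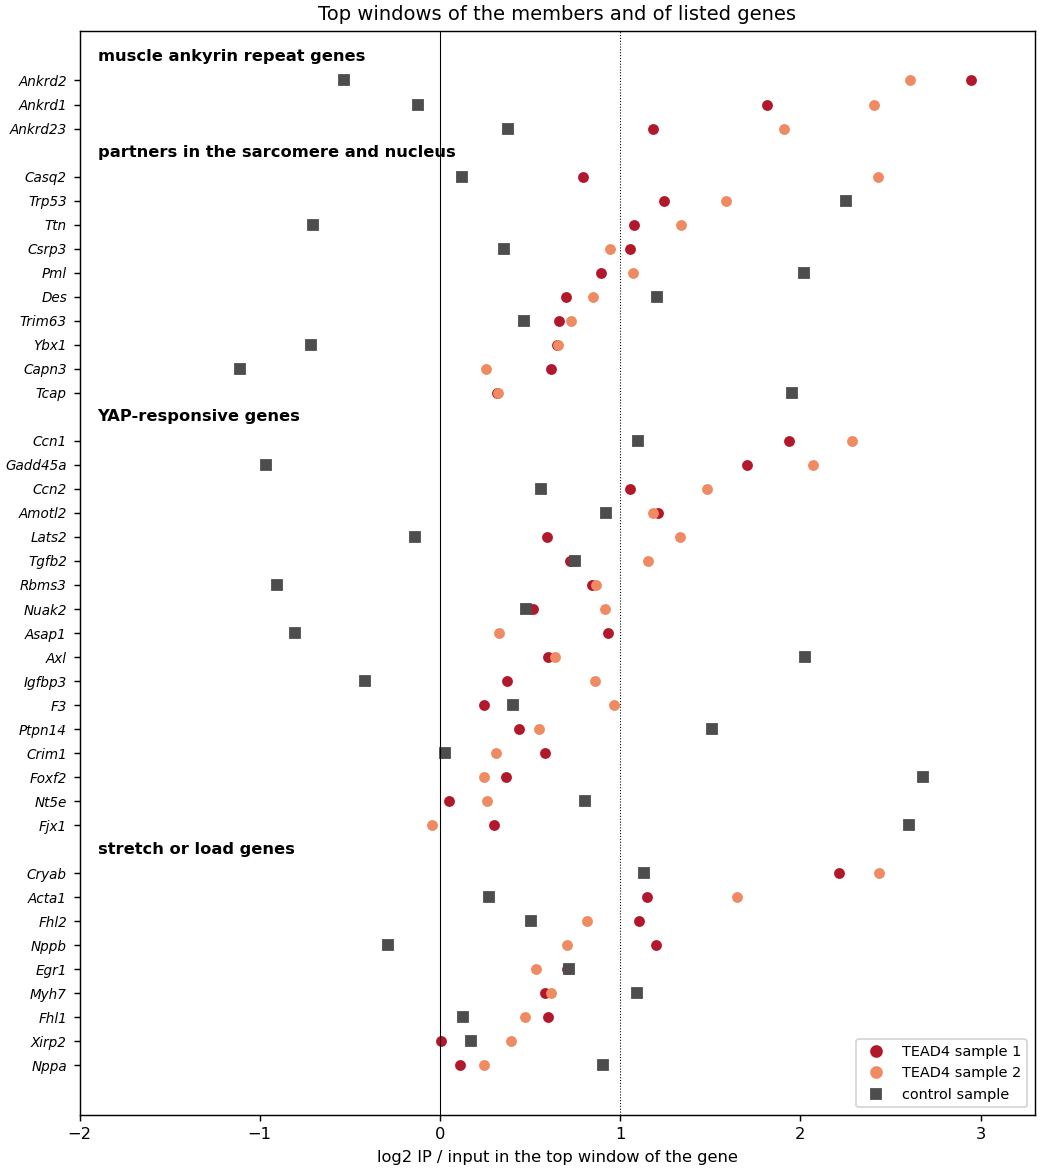
Log2 of IP over input in the top window of each gene (horizontal axis) for the 3 muscle ankyrin repeat genes, 10 partners, 17 YAP-responsive genes and 9 stretch or load genes (rows, ordered by the TEAD4 mean within each list). Circles are the TEAD4 samples, squares the control, and the dotted line marks a log2 of 1; Ankrd2 has the highest TEAD4 mean shown, 2.78.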

How the data were processed

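ChIP-chip was measured in 2 TEAD4 samples and 1 control sample, each on 2 array designs. Per the file headers, the authors extracted the deposited intensities with Feature Extraction 9.5.3.1 from Agilent, which subtracted background and applied 1 linear dye factor per channel. The deposited log10 ratios are IP over input from those intensities, and the deposited series table holds the same log10 ratios (largest difference 0). Genome build and aligner of the probe coordinates are not given in the sources used here. No probe of the 3 genes was flagged as non-uniform, and the number of arrays limits the precision.

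From the processed intensities, log2 IP over input was taken and each array was centred on its median. Spots of control type, unplaced probes and non-uniform spots were left out, which kept 236180 and 235690 probes on designs 1 and 2, in 428020 windows. Of 16840 array symbols, 16494 were updated by accession through RefSeq (GRCm38.p6, names only), 181 by symbol and 108 by synonym, and 57 kept the file's name. The members and lists were chosen with earlier results of these data known, and the distance ranges used for probe medians were set after seeing the profiles. Values are means ± SD of the duplicates with no test, since the genes were chosen on these samples. A gene was called when 1 window was at least 2-fold over input in both TEAD4 samples, or also 2-fold over the control. Named genes were the members, other symbols at their top windows, the 3 nearest patterns per member and up to 4 called genes per list. Casq2 was named after its values were seen. Listed genes without a window were not analysed here. Alternatives were normexp (offset 50) and loess with limma 3.58.1 in R 4.3.3, array scaling, quantile normalization, the deposited ratios not centred, window size, statistic, probe minimum, non-uniform spots, thresholds and each duplicate left out. The rest was computed in Python 3.11.15 (numpy 2.4.6, pandas 2.3.3). The window step was run on shuffled probe ratios with enriched genes planted, as a check of the code only. Shuffling removes the likeness of neighbouring probes, so it does not measure how the rule performs on these arrays.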

Additional observations from a re-analysis of the deposited data

How the results depend on the processing

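Values are log2 means of the TEAD4 samples over input, or over the control, in the top window. Arrays scaled to a common spread gave 3.17 over input and 3.23 over the control for Ankrd1, 4.19 and 4.42 for Ankrd2, and 2.25 and 2.07 for Ankrd23. Quantile normalization gave 3.28 and 3.46 for Ankrd1, 4.07 and 4.43 for Ankrd2, and 2.52 and 2.36 for Ankrd23. Both settings give the TEAD4 arrays, whose ratios are narrower, a wider spread. The deposited ratios, not centred, gave 2.80, 3.87 and 1.80 over the control for Ankrd1, Ankrd2 and Ankrd23, since the control medians lie below 0. Windows of 1000 bp on each side gave 1.63 over input for Ankrd1, and 1.67 over input and 1.17 over the control for Ankrd2. The median of the probes gave 3.07 over the control for Ankrd1 and 2.50 over input for Ankrd2. Normexp gave 0.89 over input for Ankrd23, and the cause was not tested.

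Leaving out each TEAD4 sample in turn gave 1.81 to 2.41 over input and 1.94 to 2.53 over the control for Ankrd1, 2.61 to 2.95 and 3.14 to 3.48 for Ankrd2, and 1.18 to 1.91 and 0.81 to 1.53 for Ankrd23. With 1 TEAD4 sample 1331 to 2566 genes passed over input and 640 to 1366 over input and control, against 858 and 422 with both: 1331 and 640 were without sample 2 and 2566 and 1366 without sample 1. All 3 members passed either way, which was fixed in advance, since a gene that passes in both samples also passes in each.

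Genes past 2-fold over input numbered 554 with normexp, 2522 with scaling, 4611 with quantile normalization and 368 with 1000 bp. Genes past input and control numbered 1494 with scaling, 2841 with quantile normalization, 161 with 1000 bp and 265 with at least 5 probes. At 1.5-fold 3336 and 1506 genes passed, with all 3 members, and at 3-fold 129 and 68, with Ankrd1 and Ankrd2 but not Ankrd23. Without Ankrd23, 2 members passed over input and over the control after normexp, and 2 over input and control after loess, with 1000 bp and with at least 5 probes. The remaining values moved by less than the SD of the duplicates, and the remaining counts of all genes by less than 1.5 times. For the values with 1 duplicate left out this had to be so, since dropping 1 duplicate always moves the mean by less than the SD. The minimum of 5 probes left the top windows of the members unchanged, because they already held 5. In the control, 94.4% and 95.6% of probes had IP signal well above background on designs 1 and 2.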
